A study of Mus musculus with 8 samples.

Results

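The genes described here are 10 imprinted genes of the mouse that lie outside the 2 large imprinted clusters at H19-Igf2 and Dlk1-Meg3: Airn, Igf2r, Grb10, Ndn, Snrpn, Ube3a, Peg3, Mest, Plagl1 and Gnas. They were taken by name, and all 10 were found among the 46113 NCBI gene IDs of the deposited tables. They were chosen with their levels in these same libraries in view, so the difference between the 2 cell fractions is given for them as a description, with no p-value. The data are bulk RNA-seq of 2 fractions sorted from the bone marrow of C57BL/6 mice aged 8 to 10 weeks, with 4 libraries of each. Both fractions were lineage-negative and carried c-Kit, Sca1 and CD150. The CD34-negative fraction is named HSC (hematopoietic stem cells) in the labels, and the CD34-positive fraction HPC (hematopoietic progenitor cells). No genotype, treatment or time differed between the groups as labelled. The strain is inbred, so no read could be assigned to the maternal or the paternal chromosome, and every level below is the sum over both alleles.

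Imprinted genes are read from 1 parental chromosome only, or mainly from it, because a mark of DNA methylation laid down in the egg or the sperm at a control region is kept through cell division. Many of them act on growth and on the choice between rest and division, and several have been studied for roles in blood stem cells. Of these 10 genes, 6 are known to be expressed from the paternal copy. They are Airn, a long noncoding RNA that silences its neighbours in cis, Ndn (necdin, a growth-restraining protein of the MAGE family), Snrpn (a splicing protein), Peg3 (a zinc finger protein), Mest (a hydrolase-like protein) and Plagl1 (a zinc finger factor that slows growth). The other 4 are known as maternally expressed, in some cases only in certain tissues. They are Igf2r, the receptor that carries IGF2 to the lysosome for breakdown, Grb10, an adaptor that restrains insulin and IGF1 receptor signalling, Ube3a, a ubiquitin ligase whose imprinting is known from neurons, and Gnas, which encodes the stimulatory G protein subunit that drives cAMP synthesis.

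The starts of these genes can be shown from RefSeq (build GRCm38.p6, whose coordinates are those of mm10), which gave 19 windows of 250 bases before to 50 bases after an annotated start, with at least 1 for each of the 10 genes. The window before Ndn is shown first, because Ndn has a single exon and a single start and was among the members that were higher in HSC. It lies at chr7:62348027-62348276 on the plus strand and ends at the base before the annotated start. Capitals mark CGCATGCG, a palindrome that forms the core of the motif known for the factor NRF1, and that was looked for only after the windows had been read.
Ndn: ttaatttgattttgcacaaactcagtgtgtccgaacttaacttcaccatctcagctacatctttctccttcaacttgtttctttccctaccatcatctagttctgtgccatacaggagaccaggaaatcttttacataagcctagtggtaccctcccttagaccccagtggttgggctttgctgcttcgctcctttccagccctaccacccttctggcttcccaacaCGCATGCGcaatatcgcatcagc

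The same 8 bases were present in all 4 windows of Snrpn, a gene of the same imprinted domain of chromosome 7. Snrpn as counted here starts at 60140219, which is 2208058 bases from Ndn. Start A below lies outside the gene as counted and nearer to Ndn. Short stretches are set side by side to show the shared core. The stretch of Ndn lies at chr7:62348245-62348269 on the plus strand. Those of Snrpn lie on the minus strand, at chr7:60450225-60450249 for start A, chr7:60140288-60140312 for start B, chr7:60048034-60048058 for start C and chr7:60005150-60005172 for start D.
Ndn: ttcccaacaCGCATGCGcaatatcg
Snrpn, start A: aaacatccaCGCATGCGtgattgga
Snrpn, start B: aaacatccaCGCATGCGtgatggga
Snrpn, start C: aaacatgcaCGCATGCGtcgttgaa
Snrpn, start D: tgcctgggaCGCATGCGtaggga
None of the other 8 genes held this core in any window. Of all 32851 RefSeq windows of this length, 1.87% held it, a share per window and not per gene.

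A second pattern, TGCCGC, is the core bound by ZFP57 when it is methylated, and ZFP57 is the zinc finger protein that keeps imprints in the early embryo. On either strand it was found in windows of 4 of the 10 genes (Grb10, Mest, Plagl1 and Snrpn) and in 11.6% of all windows. The first count is per gene, with any of its windows counted, and the second per window, so they cannot be compared directly. The stretches below are shown because Grb10 and Plagl1 were higher in HSC and Mest overlapped between the fractions. They hold the pattern as its reverse complement in capitals, and lie at chr11:12037381-12037406 (minus strand) for Grb10, chr10:13090732-13090757 (plus) for Plagl1 and chr6:30737973-30737998 (plus) for Mest.
Grb10: gtgcggggagGCGGCAggaagggaag
Plagl1: ggcgtgttgcGCGGCAaagcccacgg
Mest: gaggggcgctGCGGCAggatgggcgg
The core of the YY1 motif, ATGGCGGC, was in no window of the 10 genes and in 2.24% of all windows. These matches are letters in a window and were not tested against binding.

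The libraries held 16291733 to 19070313 exon reads in HSC and 18223082 to 20564901 in HPC. Levels are CPM, exon counts scaled to library size by TMM, as mean ± SD over 4 libraries unless each library is given. Nothing in the labels says that libraries of a fraction came from separate animals, so the spread may be technical. A gene with 0 reads in a library could still have had up to 3 reads, which corresponds to 0.149 to 0.179 CPM and covers counting error only. The stem cell markers fixed for this work were higher in HSC for all 11 genes and the progenitor markers lower for all 9 (edgeR, adjusted p under 0.05). In bulk RNA of this kind, fewer cells of a type and less RNA per cell cannot be told apart.

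Exon reads were found for 9 of the 10 genes. Airn has no annotated exons in the tables and was measured by reads anywhere in the gene. Of the 9 genes, 5 (Grb10, Ndn, Snrpn, Peg3 and Plagl1) had every HSC library above every HPC library, and 0 had the reverse. Of all genes tested, 19.5% had every HSC library above every HPC library. The filter on low exon counts was passed by 6 of them, of which 3 (Grb10, Ndn and Snrpn) were called higher and 0 lower, against 19.6% of all 12751 genes tested called higher and 17.6% lower. Peg3, Plagl1 and Mest did not pass the exon filter. On intron reads 7 members passed the filter and 3 (Airn, Igf2r and Grb10) were called higher and 0 lower, against 10.8% and 9.43% of all genes, and the same 3 had every HSC library above every HPC library, against 12.7%. On gene reads 8 passed and 5 were called higher and 0 lower, against 17.0% and 15.5%, and 7 of the 10 were fully separated, against 18.0%. The members were chosen on this contrast, so nothing is read from these counts. Split by the parental copy that is known to be active, with Airn by its gene reads, 5 of the 6 paternally expressed genes had fully separated fractions, Mest being the exception. Among the 4 maternally expressed ones this was so on exon reads for Grb10 only. On gene reads, the measure used for Airn, Igf2r was fully separated as well (59.4 CPM or more in HSC, 33.2 or less in HPC). The split thus depends on the kind of read, and nothing is read from it either.

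**Figure D1:**
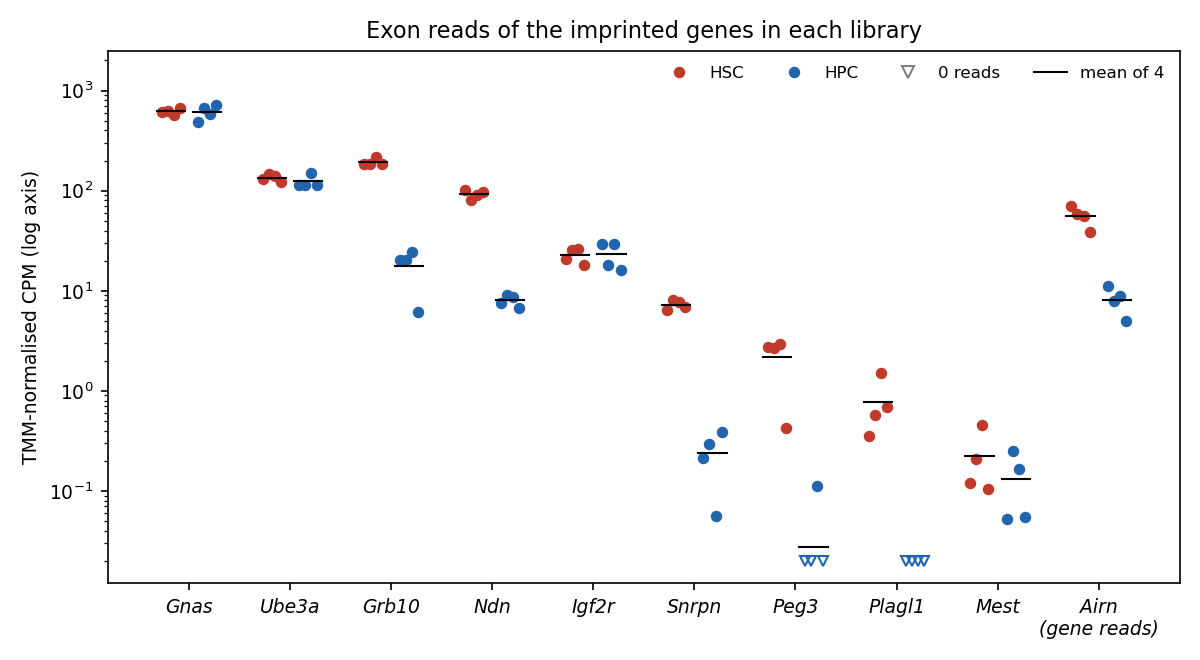
Level of each imprinted gene in each library, in TMM-normalised CPM on a log axis (exon reads; for Airn, gene reads, scaled to all gene reads). Red points are the 4 HSC libraries, blue points the 4 HPC libraries, black lines the means, and open triangles libraries with 0 reads. Gnas, Ube3a, Igf2r and Mest overlap between the fractions, and the other 6 genes are higher in all HSC libraries.

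Compared per kilobase of exon, the genes covered a wide range. In HSC the order was Gnas at 65.8, Ndn at 55.9, Grb10 at 37.0, Ube3a at 20.8, Snrpn at 3.06, Igf2r at 2.55, Peg3 at 0.208, Plagl1 at 0.149 and Mest at 0.0765 CPM per kilobase. In HPC, Gnas (65.1) and Ube3a (19.1) came first, ahead of Ndn at 4.87, Grb10 at 3.39 and Igf2r at 2.60 CPM per kilobase. In HSC the ranges of Gnas and Ndn touched on this scale, although Gnas was above Ndn within each of the 4 libraries. The ranges overlapped as well for Snrpn and Igf2r and for Peg3, Plagl1 and Mest, and for no other neighbours in that order. In HPC the range of Grb10 overlapped those of Ndn and of Igf2r, which were separate from each other. Ndn thus stood above Ube3a in HSC and below it in HPC.

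Grb10 (NCBI gene 14783, chromosome 11, 11930499 to 12037422, minus strand, mm10) had the highest exon CPM of the genes that were higher in HSC. Its exon reads stood at 185, 187, 219 and 183 CPM in HSC replicates 1 to 4 and at 20.1, 20.1, 24.6 and 6.19 CPM in HPC replicates 1 to 4. The fractions lay far apart, and HPC replicate 4 was the lowest of all. The means were 193 ± 16.8 CPM in HSC against 17.8 ± 8.00 in HPC, a 10.9-fold difference and a fitted log2 change of 3.44 ± 0.29 (SE). Over all alternatives run the change lay between 3.16 and 3.63. Intron reads, which come largely from unspliced RNA, were at 123 ± 21.5 CPM of intron reads in HSC and 7.43 ± 4.31 in HPC, 16.6-fold apart (log2 4.03 ± 0.33). The share of exon reads that crossed an exon junction was alike, at 31.7% ± 2.06 and 31.1% ± 6.76. Exon and intron reads of Grb10 were thus both higher in HSC. All of its exon reads were listed as unique to it. Of its intron reads, only 1795 of 3013 in HSC and 121 of 181 in HPC were unique. The unique intron reads numbered 274 to 551 in the HSC libraries and 8 to 58 in the HPC libraries.

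Ndn (gene 17984, chromosome 7, 62348277 to 62349928, plus strand) was 11.5-fold higher in HSC. It was at 102, 81.0, 90.1 and 96.7 CPM in the HSC libraries and at 7.61, 9.14, 8.69 and 6.74 CPM in the HPC libraries. Both fractions were tight, at 92.4 ± 9.0 and 8.05 ± 1.08 CPM, and the fitted change of 3.52 ± 0.14 had the smallest SE among the members that were higher. Ndn has a single exon, so it had neither intron reads nor reads across a junction. Only 1 of its 7487 reads was listed as unique to the gene. Among 310 single-exon genes with at least 100 exon reads over the 8 libraries, 59 had 0 unique reads. Ndn lies inside Gm32061, an unnamed model on the opposite strand without annotated exons, whose 148 reads were all listed as unique. Gm32061 had 108 reads over the HSC and 40 over the HPC libraries. What else the reads of Ndn match is not given in the sources used here. Its level therefore cannot be told apart from that of any other match.

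Snrpn (gene 20646, chromosome 7, 59982502 to 60140219, minus strand) was near the limit of detection in HPC. Its exon reads numbered 107, 156, 153 and 131 in the HSC libraries and 4, 6, 1 and 7 in the HPC libraries. That corresponds to 7.29 ± 0.793 CPM against 0.238 ± 0.141 CPM, a 30.6-fold difference (log2 4.89 ± 0.44). Every HSC library was above every HPC library. Of its exon reads in HSC, 93.6% to 98.1% crossed an exon junction, so they came from spliced RNA. Snurf, the upstream reading frame of the same transcript, shares exons with Snrpn, and none of the exon reads of Snrpn was listed as unique to it. Snurf was at 6.98 ± 1.0 CPM in HSC against 0.105 ± 0.0383 in HPC, higher by a log2 change of 5.95 ± 0.43 (edgeR adjusted p = 8.3e-08). How reads that match both genes were divided is not given in the sources used here, so the 2 levels cannot be told apart.

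The introns of Snrpn did not follow its exons. Intron reads numbered 61, 50, 13 and 16 in the HSC libraries and 32, 34, 18 and 18 in the HPC libraries, and the fractions overlapped (log2 0.42 ± 0.54). Introns made up 7.83% to 36.3% of its gene reads in HSC and 72.0% to 94.7% in HPC. Without the reads shared with other genes, the log2 change of its gene reads went from 2.49 ± 0.30 to −0.44 ± 0.82. Of 687 gene reads in HSC and 120 in HPC, 65 and 90 were then left, all of them in introns. Snhg14, known as a long noncoding RNA that runs antisense to Ube3a, is listed in the tables only at 59969577 to 59974431, which does not reach Ube3a. Over that stretch its gene reads were at 0.810 ± 0.309 CPM in HSC against 0.159 ± 0.184 in HPC. Every HSC library of Snhg14 was above every HPC library, but it was not called (log2 2.34 ± 0.92, edgeR adjusted p = 0.071).

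**Figure D2:**
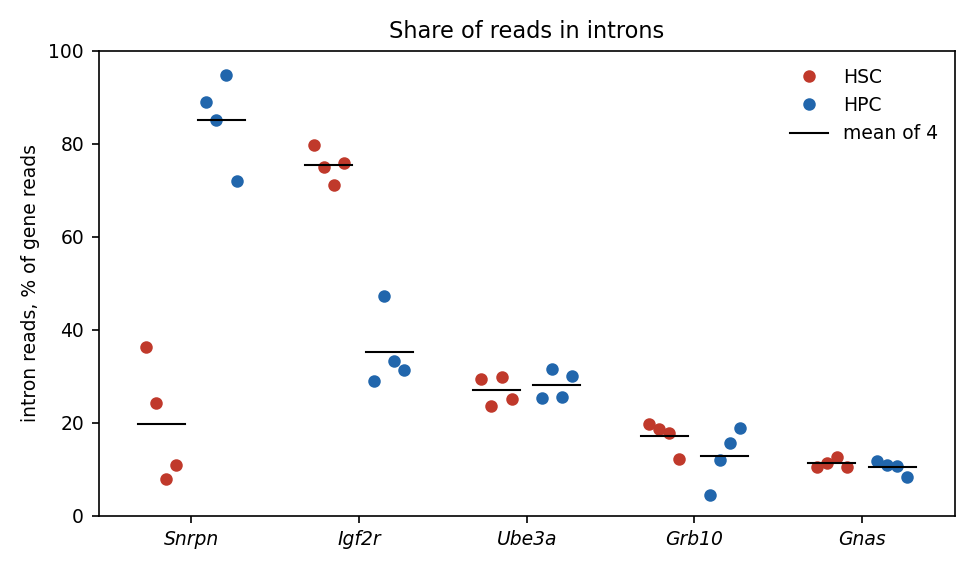
Intron reads as a percentage of all reads in the gene, for the 5 members with spliced reads in all libraries and more than 500 gene reads in all, in each HSC (red) and HPC (blue) library, with means as black lines. Snrpn and Igf2r separate the fractions in opposite directions, while Ube3a, Grb10 and Gnas overlap.

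Ube3a (gene 22215, chromosome 7, 59228750 to 59306733, plus strand), at the other end of the same domain, was at a like level in both fractions. It stood at 131, 146, 139 and 122 CPM in HSC and 115, 115, 151 and 115 CPM in HPC. The ranges overlapped, since HPC replicate 3 was the highest of the 8. The fitted change was 0.12 ± 0.11 on exon reads and 0.01 ± 0.14 on intron reads. C230091D08Rik, a noncoding gene on the opposite strand whose near end lies 1191 bases from the end of Ube3a, was at 22.5 ± 1.72 CPM of gene reads in HSC and 19.5 ± 6.09 in HPC. It was named after its values were seen.

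Of the other genes of this domain on chromosome 7, Peg12, a paternally expressed gene, was at 45.9 ± 5.42 CPM in HSC against 26.6 ± 7.34 in HPC, 1.73-fold higher (edgeR adjusted p = 0.0028). Mkrn3, also paternally expressed, was at 5.94 ± 3.10 against 3.17 ± 1.79 CPM with overlapping fractions (log2 0.91 ± 0.49, adjusted p = 0.16). Magel2, a MAGE family gene close to Ndn, had 0 exon reads in all 8 libraries. Atp10a, a membrane lipid transporter beside Ube3a, was lower in HSC, at 22.6 ± 1.62 against 48.5 ± 2.93 CPM (edgeR adjusted p = 3.8e-06). Within this domain the genes tested on exon reads thus had 3 patterns. Ndn, Snrpn, Snurf and Peg12 were higher, Ube3a and Mkrn3 overlapped, and Atp10a was lower.

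**Figure D3:**
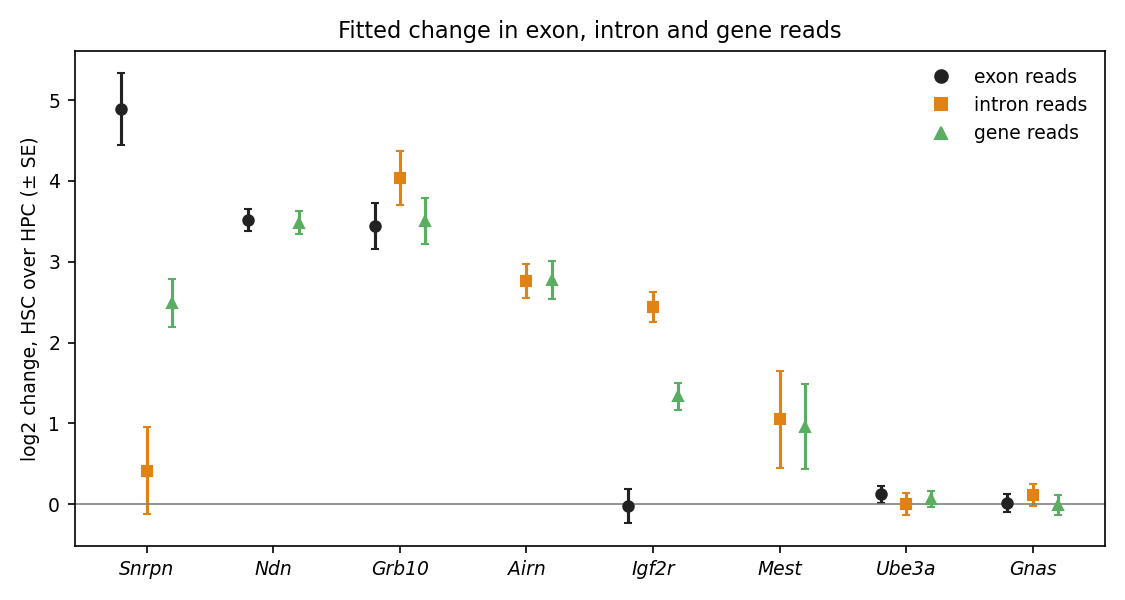
Fitted log2 change, HSC over HPC, with its SE, for the 8 members that passed the filter on low counts in at least one kind of read. Black circles are exon reads, orange squares intron reads and green triangles gene reads. Grb10 is high in all 3, Igf2r only in intron and gene reads, and Snrpn in exon and gene reads, while Ube3a and Gnas lie near 0.

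Igf2r and Airn overlap on opposite strands of chromosome 17, and their reads have to be read together. Igf2r (gene 16004, 12682406 to 12769706, minus strand) and Airn (gene 104103, 12741311 to 12859884, plus strand) share 28396 bases, in which Airn begins inside an intron of Igf2r and runs against it across the Igf2r start. Exon reads of Igf2r were at 20.8, 25.7, 26.4 and 18.2 CPM in HSC and 29.1, 18.0, 29.6 and 16 CPM in HPC. The fractions overlapped fully, with a log2 change of −0.02 ± 0.21. Airn gene reads were at 70.6, 59.1, 55.4 and 38.9 CPM in HSC and 11.1, 7.87, 8.77 and 5.0 CPM in HPC. All HSC libraries were above all HPC libraries, at 56.0 ± 13.1 against 8.17 ± 2.50 CPM, a 6.85-fold difference (log2 2.78 ± 0.23).

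Intron reads listed under Igf2r differed between the fractions, although its exon reads overlapped. They were at 232, 223, 197 and 208 CPM of intron reads in HSC and at 39.0, 51.9, 41.6 and 25.3 in HPC, 5.45-fold apart (log2 2.44 ± 0.19). Introns made up 75.3% ± 3.54 of the Igf2r gene reads in HSC and 35.2% ± 8.19 in HPC. Only 2.18% ± 0.664 of these intron reads in HSC were listed as unique to Igf2r.

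The reads were divided by whether they matched 1 gene or more than 1, since Airn also overlaps Mas1 at its far end. On the scale of CPM of gene reads, Airn reads that are unique to it, from the 66323 bases that no other gene of the tables covers, were at 12.3 ± 2.61 in HSC and 1.81 ± 0.909 in HPC, 6.78-fold apart. Airn reads that are not unique were at 43.8 ± 10.7 and 6.37 ± 1.60, 6.87-fold apart, and the intron reads of Igf2r that are not unique were at 51.0 ± 6.09 and 8.99 ± 2.39, 5.67-fold apart. The intron reads unique to Igf2r, from its 58905 bases outside Airn, were few, at 1.16 ± 0.478 and 0.599 ± 0.623, and overlapped. Per kilobase, the unique Airn stretch held 0.185 CPM in HSC and 0.0272 in HPC, and the unique Igf2r introns held 0.0197 and 0.0102. The Igf2r intron reads that are not unique would give 1.79 and 0.317 if all of them lay in the 28396 bases shared with Airn. The reads not unique to a gene numbered 1268, 1239, 1156 and 706 under Airn and 1324, 1434, 1268 and 1060 under Igf2r in the HSC libraries. Each HSC library thus had more under Igf2r than under Airn. Some of the Igf2r reads may therefore lie elsewhere, and 1.79 and 0.317 may not be levels of the shared stretch. Whether counting used strand is not given in the sources used here, so reads of Airn and of unspliced Igf2r in the stretch they share cannot be told apart. Counting only unique reads, the log2 change of Igf2r gene reads went from 1.34 ± 0.17 to −0.03.

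**Figure D4:**
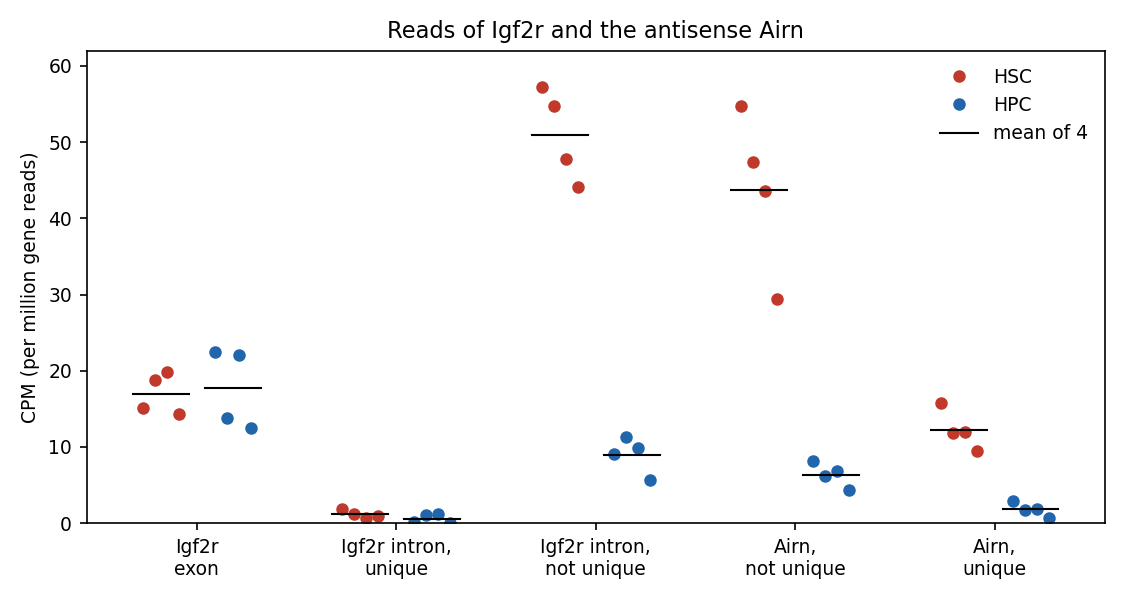
Reads of Igf2r and Airn in each HSC (red) and HPC (blue) library in CPM of gene reads, split into reads that match 1 gene (unique) and reads that match another gene too (not unique), with means as black lines. The unique Airn reads and both sets of reads that are not unique separate the fractions, while Igf2r exon reads and unique Igf2r intron reads overlap.

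Airn is known for silencing the transporter genes Slc22a2 and Slc22a3 in cis in the placenta. Slc22a3 was lower in HSC, at 64.9 ± 2.89 against 197 ± 20.2 CPM, a 3.04-fold difference (log2 −1.60 ± 0.10, edgeR adjusted p = 1.4e-08), and every HSC library was below every HPC library. Slc22a2 had 0 exon reads in all libraries. Mas1, a receptor gene that overlaps the last 21816 bases of Airn on the opposite strand, was higher on gene reads (1.59 ± 0.748 against 0.450 ± 0.176 CPM, log2 1.81 ± 0.55, edgeR adjusted p = 0.022) and was too low for the exon test. Only 21 of its 156 gene reads in HSC and 10 of 44 in HPC were unique to it, so its reads cannot be told apart from those of Airn. No value here bears on whether Airn acts on these genes.

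Peg3 (gene 18616, chromosome 7, 6703892 to 6730441, minus strand) was low and nearly confined to HSC in these libraries. Its exon reads numbered 46, 51, 58 and 8 in the HSC libraries and 0, 0, 2 and 0 in the HPC libraries. Scaled to library size, 163 against 2 reads is an 81.9-fold ratio with a 95% counting interval of 22.3 to 682. HSC replicate 4, at 0.422 CPM, was well below the other 3 HSC libraries at 2.67 to 2.92 CPM, and still above every HPC library. Usp29, whose start lies 119 bases from that of Peg3 and which is read in the opposite direction, had 7 exon reads in HSC replicate 1, 5 in HPC replicate 1 and 0 in the other 6 libraries, and did not enter the exon test.

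Plagl1 (gene 22634, chromosome 10, 13090788 to 13131694, plus strand) had 6, 11, 30 and 13 exon reads in the HSC libraries and 0 in each HPC library. Its HSC mean of 0.782 ± 0.504 CPM was 4.88-fold above a floor of 3 reads per HPC library. The spread of the HSC libraries, from 0.358 to 1.51 CPM, does not enter this ratio. Phactr2, its neighbour, stood at 244 ± 35.3 CPM in HSC against 166 ± 20.1 in HPC and was called higher (1.47-fold, edgeR adjusted p = 0.0016). That call was on exon reads. On gene reads the fractions of Phactr2 overlapped and it had no call (log2 0.23 ± 0.11, edgeR adjusted p = 0.14).

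Mest (gene 17294, chromosome 6, 30733506 to 30748466, plus strand) was hardly detected in either fraction. It had 2, 4, 9 and 2 exon reads in HSC and 1, 5, 3 and 1 in HPC, a ratio of 1.71 with a 95% counting interval of 0.739 to 4.17. A difference of that size was not detectable at this depth. Most of its gene reads fell in introns, and on gene reads the fractions overlapped as well, at 1.23 ± 0.232 and 0.629 ± 0.400 CPM (log2 0.96 ± 0.53). Copg2, a coat protein gene that overlaps the end of Mest by 913 bases on the opposite strand, was at 37.0 ± 14.1 against 52.8 ± 16.9 CPM and did not pass the test (log2 −0.51 ± 0.26, edgeR adjusted p = 0.14). It was called lower without HSC replicate 1 (log2 −0.76) and with the replicate numbers as a block (−0.53).

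Gnas (gene 14683, chromosome 2, 174284306 to 174346744, plus strand) was the most abundant of the members. It stood at 608, 619, 573 and 675 CPM in HSC and at 487, 668, 581 and 712 CPM in HPC. The fractions overlapped, with means of 619 ± 42.3 and 612 ± 99.2 CPM, a log2 change of 0.02 ± 0.12 on exon reads and 0.12 ± 0.14 on intron reads. Over the alternatives run, the exon change lay between −0.09 and 0.09. The count sums all Gnas transcripts, including those from the imprinted upstream starts, so it does not show which start was used. Nespas, the antisense RNA of the locus, had 24 gene reads over the 4 HSC and 9 over the 4 HPC libraries.

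Beyond the genes named at each locus, a list of 26 neighbours was fixed, of which 25 were in the tables and 11 passed the exon filter. Of these 11, 3 were higher in HSC, 3 were lower and 5 had no call, with a median log2 change of 0.07 beside 0.00 over all genes tested. The lower genes were Slc22a3, Atp10a and Fignl1, a DNA repair factor near Grb10 that was at 82.7 ± 1.14 against 165 ± 9.45 CPM (2.0-fold, edgeR adjusted p = 3.9e-07). The higher genes were Snurf, Peg12 and Phactr2. Ddc, which lies next to Grb10 and shares its control region in the heart, had no call (log2 0.34, adjusted p = 0.74). Genes beside a member thus went either way. The shares over all genes tested were 19.6% higher and 17.6% lower, and whether the neighbours differed from them was not tested.

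Imprinted genes at other places in the genome were set beside the 10. Of 45 with exons, 32 passed the filter, 15 were higher in HSC, 2 were lower and 15 had no call, with a median log2 change of 0.57. Of all genes tested, 19.6% were called higher and 17.6% lower. The list takes in Igf2, H19, Dlk1 and Meg3 and was chosen with earlier results of these data known. Whether its genes are imprinted in these cells was not tested. The higher genes included Cdkn1c, which encodes the cell cycle inhibitor p57 and was at 129 ± 7.35 against 8.87 ± 1.88 CPM (14.5-fold, edgeR adjusted p = 2.4e-10). Phlda2, a growth restraint of the placenta, was 4.33-fold higher (adjusted p = 5.8e-07) and Ampd3, an AMP deaminase, 4.24-fold (8.5e-07). The lower genes were Osbpl5, a lipid carrier, at 9.27 ± 1.48 against 27.6 ± 1.92 CPM (adjusted p = 2.3e-06), and H13, a signal peptide protease, at 232 ± 10.1 against 285 ± 18.6 CPM (adjusted p = 0.014). Igf2 had 292 exon reads over the HSC libraries and 0 over the HPC libraries. Its HSC mean was 24.7-fold above the floor, and the list median was the same with Igf2 at that value. Of the noncoding genes without exons, 4 passed the filter on gene reads and all 4 (H19, Meg3, Rian and Mirg) were called higher.

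A broad list of genes tied to imprints, DNA methylation and related chromatin marks was also fixed. Not all of them keep methylation through division, since Dnmt3a, Dnmt3b, Ezh2 and Eed are among them. Of 18 tested, 9 were lower in HSC, 1 was higher and 8 had no call, with a median log2 change of −0.36. Of all genes tested, 17.6% were called lower and 19.6% higher. Uhrf1, which brings the maintenance methylase to newly copied DNA, was at 100.3 ± 12.2 against 248 ± 31.0 CPM (2.47-fold lower, edgeR adjusted p = 6e-07). Dnmt1, that methylase, was at 168 ± 12 against 363 ± 65.6 CPM (2.17-fold lower, adjusted p = 4.2e-06). Ezh2, a Polycomb methylase, was 1.78-fold lower (adjusted p = 8.1e-06). Zfp57, named above for the pattern TGCCGC, was at 11.7 ± 3.28 against 7.44 ± 0.670 CPM (1.57-fold higher, adjusted p = 0.041) with overlapping fractions. That call was lost with the replicate numbers as a block and when any 1 of 6 libraries was left out (HPC replicate 1, 3 or 4 or HSC replicate 1, 2 or 3; edgeR adjusted p from 0.075 to 0.13), and under uniquely assigned reads the list held 0 higher genes.

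The pathway on which Igf2r and Grb10 act was described by 22 genes of IGF and insulin receptor signalling. Of 15 tested, 6 were higher in HSC, 2 were lower and 7 had no call, beside 19.6% higher and 17.6% lower over all genes. The median log2 change was 0.30. The ligand Igf1 was at 21.9 ± 1.54 against 1.72 ± 0.381 CPM (12.8-fold higher, edgeR adjusted p = 9.3e-09). Its receptor Igf1r was 1.51-fold higher (183 ± 22.0 against 121 ± 12 CPM, adjusted p = 0.00049) and Pik3r1, a subunit of PI3 kinase, 1.91-fold (adjusted p = 0.00017). Igfbp4, a protein that binds IGF outside cells, was lower at 105 ± 11.2 against 339 ± 18.8 CPM (adjusted p = 9.6e-09). Gnptab, which makes the mannose 6-phosphate tag that Igf2r recognises, was lower at 47.8 ± 11.4 against 90.0 ± 10.6 CPM (adjusted p = 0.00036). M6pr, the second receptor for that tag, was 1.23-fold higher (adjusted p = 0.0088).

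Gnas signals through adenylyl cyclases to cAMP. Of 21 tested genes of this pathway, 5 were higher in HSC, 5 were lower and 11 had no call, with a median of −0.05. Over all genes the shares were 19.6% higher and 17.6% lower. Prkar2b, a regulatory subunit of the cAMP-dependent kinase, was at 167 ± 15.2 against 103 ± 5.22 CPM (edgeR adjusted p = 3.9e-05). The cyclase genes Adcy6 (2.07-fold, adjusted p = 0.0014) and Adcy9 (1.56-fold, adjusted p = 0.017) were higher, and Adcy3 was 1.93-fold lower (adjusted p = 0.0066). Rgs2, which limits G protein signalling, was 3.0-fold lower (adjusted p = 2.5e-06), and Creb1, a factor switched on by cAMP, 1.42-fold lower (adjusted p = 0.0021).

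Necdin belongs to the MAGE family. Of 5 other MAGE genes in the list, 4 were higher in HSC, Maged2 at 106 ± 11.4 against 33.9 ± 3.15 CPM (edgeR adjusted p = 6.1e-08), Magee1 at 23.7 ± 1.06 against 7.09 ± 1.63 CPM (adjusted p = 2.9e-06), Maged1 at 172 ± 16.4 against 81.0 ± 14.4 CPM (adjusted p = 7.8e-06) and Mageh1 (adjusted p = 0.019), whose fractions overlapped. Nsmce3, a MAGE gene of the SMC5/6 complex, had no call at 55.6 ± 4.10 against 49.7 ± 7.73 CPM (adjusted p = 0.36). E2f1, a cell cycle factor that necdin is known to bind, was at 37.8 ± 4.69 against 63.7 ± 11.8 CPM (1.69-fold lower, adjusted p = 0.00082). Trp53, another known partner, had no call (log2 −0.15, adjusted p = 0.26). Nsmce1, of the same complex, was 1.53-fold lower (adjusted p = 0.0006). Over the 9 genes 4 were higher, 2 lower and 3 had no call, with a median of 0.16. Over all genes tested, 19.6% were higher and 17.6% lower.

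**Figure D5:**
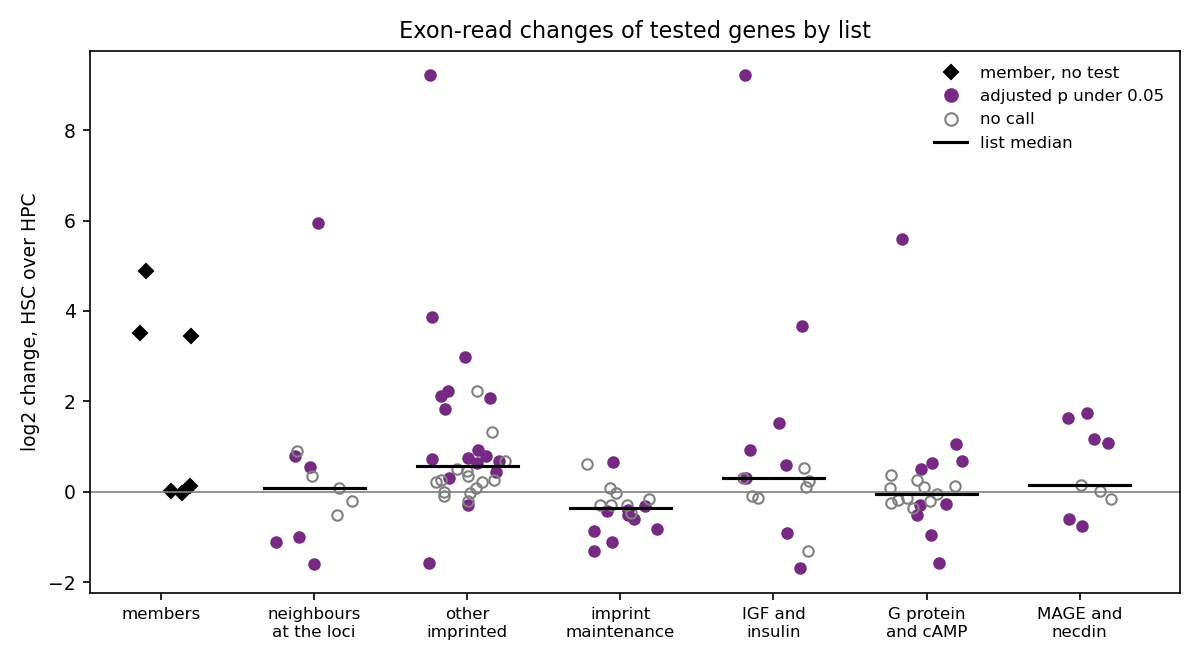
Log2 change in exon reads, HSC over HPC, of the genes tested in each list. Black diamonds are the members, shown without a test, filled purple circles other genes with an adjusted p under 0.05, open circles other genes without a call, and black lines the medians of the lists other than the members. The 2 points above 9 are Igf2, which is in both lists and has 0 reads in HPC.

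Imprinted genes are also expressed in stromal and endothelial cells, and markers of other cell types were measured beside the members. The summed level of 12 stromal markers was 18.8 to 40.9 CPM in the HSC and 76.4 to 98.9 CPM in the HPC libraries, with Cxcl12 called higher and Pdgfrb lower in HSC among 4 tested and a median log2 change of 0.77. The call of Cxcl12 was lost without both libraries numbered 4 (log2 1.56, edgeR adjusted p = 0.065). Pdgfrb alone was at 4.27 to 6.53 and 64.4 to 79.8 CPM. That of 8 endothelial markers was 188 to 205 and 346 to 393 CPM, with 4 called higher, among them Emcn and Plvap, 2 lower, Egfl7 and Pecam1, and a median of 0.64. Without HPC replicate 1 or 2 or HSC replicate 2, Emcn was not called (log2 0.38 to 0.47, edgeR adjusted p from 0.054 to 0.066). Without HPC replicate 1, 2 or 3 or HSC replicate 2 or 3, Plvap was not called (0.59 to 0.75, adjusted p from 0.063 to 0.14). Both sums were thus lower in HSC, while both medians were above 0. Red cell markers were the reverse, at 183 to 462 and 40.9 to 161 CPM, with 3 of 7 higher, Hba-a1 and Hbb-bt among them, and a median of 1.68. Megakaryocyte markers summed to 164 to 240 and 148 to 200 CPM, with Gp9 among 2 higher and Itga2b lower of 5 tested and a median of 0.75. Itga2b was not called without HPC replicate 1, 2 or 3 or HSC replicate 1 or 2 (log2 −0.29 to −0.24, edgeR adjusted p from 0.077 to 0.15). Neutrophil and monocyte markers summed to 176 to 257 and 195 to 365 CPM, with Csf1r lower, a median of −0.45 and Ly6g at 0 reads in all libraries. B, T and NK cell markers summed to 134 to 175 and 342 to 434 CPM, with 5 of 8 higher (Cd3e, Klrb1c and Cd79a among them), Nkg7 lower and a median of 1.81. Stem cell markers led by Mllt3, Procr and Vwf and progenitor markers led by Flt3, Satb1 and Cd34 moved with the sort. The part of any of these cells in the levels of the members was not tested.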

How the data were processed

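The groups, 4 HSC and 4 HPC libraries, follow the titles. As the labels' protocols say, RNA from 5000 sorted cells was extracted with ISOGEN (the protocol speaks of HSC only), turned into cDNA with the SMARTer Pico kit, amplified by 18 PCR cycles and made into libraries with Nextera XT. The build is mm10, per the submitters' processing notes. Aligner, counter and use of strand: not given in the sources used here. The deposited tables count exon, intron, junction and whole-gene reads as whole numbers, both in total and unique to a gene, per the file headers. Reads were summed per NCBI gene ID, since Igf2r and Airn stand on 2 rows each, and total reads were used. The authors' other values (TPM and RPKM) were not used.

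Counts were fitted with edgeR 4.0.16 in R 4.3.3 (filterByExpr, TMM, quasi-likelihood F test, no covariate), separately for exon reads (12751 genes tested), intron reads (15142) and gene reads (16704). The Benjamini-Hochberg adjustment covered every gene in a fit, and calls needed an adjusted p under 0.05. Folds are ratios of mean CPM, and the SE is the size of the log2 change over the root of F. The biological coefficient of variation was 18.3% for exon reads and 30.4% for intron reads, so intron changes are less precise. Intervals for low counts are exact binomial at 95%, and the floor is 3 reads. On simulated counts (12623 genes tested), edgeR found 32 of 100 true 1.5-fold changes and 73 of 100 true 2-fold changes, with 4 false among 109 calls.

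The members, lists and tests were chosen with earlier results of these data known. Of 229 list symbols 228 matched, and Ndnl2 stood for Nsmce3. Text names all members, neighbours that overlap them or were called, and up to 3 called genes in each direction of each other list with the smallest adjusted p and a mean of at least 5 CPM; 1 gene it selects is not reported here, and Ddc, Mkrn3, Magel2, Slc22a2, Usp29, Igf2, M6pr, Mageh1, Nsmce3, Trp53 and the noncoding genes were added after their values were seen. Alternatives were RLE scaling, no filter or one of 50 reads in 4 libraries, DESeq2 1.42.0, a block for replicate number, voom of limma 3.58.1 with quality weights, unique reads, main-assembly rows only, and leaving out libraries.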

Additional observations from a re-analysis of the deposited data

Results flagged for a closer look

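In 12 of the 162 groups of 4 libraries looked at, 1 library stood apart from the other 3 by Dixon's criterion. For independent, normally spread values, chance alone meets it in about 5% of groups. Groups with reads in 1 library only, as for Peg3 and Plagl1 below, meet it by construction. Exon and gene reads of a gene are also not independent, so the number is not set against chance. Grb10 was highest in HSC replicate 3, at 219 CPM of exon reads against 183 to 187 in the others, and at 199 CPM of gene reads. Ube3a was at 151 CPM in HPC replicate 3 and at 115 CPM in each of the others. Peg3 was at 0.422 CPM of exon reads in HSC replicate 4, where the others were at 2.67 to 2.92, and at 0.333 CPM of gene reads, where they were at 1.99 to 2.18. Its reads in HPC were all in replicate 3, at 0.111 CPM of exon and 0.0832 CPM of gene reads, and its intron reads were all in HSC replicate 2, at 0.913 CPM. Plagl1 had its sole read in HPC in replicate 3, at 0.157 CPM of intron and 0.0416 CPM of gene reads. Among other genes, Igf1 was lowest in HSC replicate 4, at 19.6 CPM against 22.4 to 22.8, and Gnptab in HPC replicate 4, at 74.4 CPM against 93.9 to 97.7.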

How the results depend on the processing

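Counts of called genes over the whole table, the neighbours and the other imprinted genes stayed within 1.5 times their values in all 162 comparisons with an alternative. Leaving out 1 library at a time gave 2188 to 2419 genes higher and 1970 to 2183 lower on exon reads. Of the members' log2 changes, 318 of 321 kept their direction or moved by less than their error. The exceptions came with unique reads only, where Igf2r went to −0.03 on gene reads and 0.97 on intron reads and Snrpn to −0.44 on gene reads, and where Ndn and Snrpn had no exon value. Deviations of same-numbered libraries correlated at −0.118 to 0.146, and 2 of 4 HSC libraries correlated best with their own number. The replicate block gave 2588 genes higher and 2448 lower on exon reads, beside 2493 and 2240 without it. It gave 4 and 4 neighbours and 15 and 2 other imprinted genes. On gene reads it gave 2853 and 2809, beside 2832 and 2596. On intron reads the calls were fewer, 1477 and 1341 beside 1628 and 1428. Whether libraries of the same number were paired cannot be told from these values, and the main fit used no block. Itga2b was also not called with no filter (log2 −0.30) or with that of 50 reads (−0.28). Depth limits Mest, Peg3 and Plagl1, and the labels do not state separate animals.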
